A study of Mus musculus with 9 samples.

Results

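A set of 8 genes of the retinal photoreceptor was followed through 9 RNA-seq libraries of mouse medullary thymic epithelial cells (mTEC): Rbp3, Sag, Pde6a, Pde6b, Gnat1, Aipl1, Rcvrn and Pdc. They were chosen by name, as retinal photoreceptor antigens, among 22999 genes with a symbol in the tables. Earlier results of these data were known when they were chosen. Each was read from the RefSeq entry of its symbol with the most normalised reads. All 8 had an entry in every file. Only Pdc had 2 entries, and both held the same reads. The cells were sorted from pooled thymi of 4-week-old B6 mice as CD45- Ly51- cells with high (mTEChi) or low (mTEClo) I-A/E. Each of the 9 groups was 1 library. A wild-type (WT) mTEChi library was paired with one from Aire-deficient B6 mice (Aire-/-, Aire-KO), and a second WT mTEChi library (Exp2) with an mTEClo library from the same pool of thymi. The remaining 5 were WT mTEChi held in actinomycin D, an inhibitor of transcription, for 0, 1.5, 3, 6 or 12 h at 1 μM, the 0 h library being the reference. The sort keeps a population and not a single cell type, and no library was repeated, so a difference within a pair has no replicate check.

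Photoreceptors turn light into an electrical signal through a cascade in which light leads to activation of the G protein transducin, and transducin activates a cyclic GMP phosphodiesterase. Gnat1 encodes the rod transducin alpha subunit, and Pde6a and Pde6b encode the catalytic alpha and beta subunits of the rod phosphodiesterase. Sag encodes arrestin of the rod, also called S-antigen, which ends the response to light. Rcvrn (recoverin) is a calcium sensor that adjusts the cascade to light, Pdc (phosducin) binds the transducin beta and gamma subunits, and Aipl1 is a chaperone needed to assemble the phosphodiesterase. Rbp3, the interphotoreceptor retinoid-binding protein (IRBP), carries retinoids between photoreceptors and the pigment epithelium. Several of these proteins can provoke autoimmune uveitis. mTEC express many such tissue-restricted antigens so that self-reactive T cells are removed, and Aire is the transcriptional regulator known for driving a large part of them.

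Promoters are shown because the regulators that switch these genes on in the retina are known to bind there. The homeodomain factor CRX binds the core TAATCC, which reads GGATTA on the other strand, before photoreceptor genes, and the leucine zipper factor NRL binds sites that hold TGCTGAC. RefSeq promoter sequences (GRCm38.p6) were matched for 5 of the 8 genes: Rbp3, Sag, Pde6b, Aipl1 and Pdc. Within the 250 bases before the annotated start, the CRX core stood in 3 of these 5, against 6.25% of 32851 promoters. It began 69 bases before the start in Rbp3, 87 in Sag and 53 in Aipl1, each time on the minus strand of the gene. The NRL letters stood in Pde6b, 8 bases before the start, against 3.81% of all promoters, and the letters TATAAA in Sag, 207 bases before the start on the minus strand, against 12.4%. The 5 promoters held 1 to 3 CpG dinucleotides (median 2), and all promoters a median of 6 (quartiles 2 and 16). The 3 sequences with the CRX core are printed below 5′ to 3′ on the gene's own strand, with the core in capitals; they belong to the antigen with 0 reads in the Aire-KO-labelled library (Rbp3), the one that differed least (Sag) and the one that differed most (Aipl1). Rbp3 is chr14:33953753-33954002 on the plus strand, Sag chr1:87803430-87803679 on the plus strand and Aipl1 chr11:72037510-72037759 on the minus strand, all in GRCm38.p6. The start used in mTEC was not measured.
Rbp3: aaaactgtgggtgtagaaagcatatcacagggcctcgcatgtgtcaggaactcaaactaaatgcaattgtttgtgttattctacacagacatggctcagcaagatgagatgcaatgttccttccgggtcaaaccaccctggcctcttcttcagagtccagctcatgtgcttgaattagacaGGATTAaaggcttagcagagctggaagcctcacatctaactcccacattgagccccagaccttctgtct
Sag: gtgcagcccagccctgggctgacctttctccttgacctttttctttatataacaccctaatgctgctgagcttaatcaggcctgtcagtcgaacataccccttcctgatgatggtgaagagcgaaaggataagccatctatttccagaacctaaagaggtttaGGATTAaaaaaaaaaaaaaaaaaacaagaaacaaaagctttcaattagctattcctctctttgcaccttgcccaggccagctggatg
Aipl1: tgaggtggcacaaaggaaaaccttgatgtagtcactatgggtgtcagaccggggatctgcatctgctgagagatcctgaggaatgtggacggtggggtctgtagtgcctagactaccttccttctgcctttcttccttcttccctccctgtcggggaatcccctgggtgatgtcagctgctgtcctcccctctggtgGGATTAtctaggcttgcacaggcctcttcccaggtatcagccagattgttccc

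In mm9, the build of the files, the GENCODE annotation placed the 8 genes on 6 chromosomes. Rbp3 (NM_015745) lay at chr14:34767208-34777402, Sag (NM_009118) at chr1:89700255-89741733, Pdc (NM_001159730) at chr1:152166547-152181035 and Pde6a (NM_146086) at chr18:61380136-61449578, all on the plus strand. Pde6b (NM_008806) lay at chr5:108817410-108861416 and Rcvrn (NM_009038) at chr11:67508828-67516835, also on the plus strand. Gnat1 (NM_008140) at chr9:107576808-107581923 and Aipl1 (NM_053245) at chr11:71841465-71851011 were on the minus strand. All were protein coding, with 3 exons in Rcvrn, 4 in Rbp3 and Pdc, 6 in Aipl1, 9 in Gnat1, 16 in Sag, 22 in Pde6b and 24 in Pde6a. Other genes overlapped 2 of the loci on the opposite strand, Glp2r that of Rcvrn and Rps2-ps10 that of Pde6a, but shared 0 exon bases with them, so the unstranded counting mixed no annotated exon of another gene into these entries.

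The counted reads came to 74161592 to 195444567 in the 5 untreated libraries and to 1746825 to 21124165 in the 4 treated ones, the 12 h library being the smallest. Levels are given as reads per 1000000 counted reads (CPM), and levels of different genes are compared per kilobase of the entry (RPKM). Aire itself was at 259 CPM in the WT library, 661 in the Aire-KO-labelled library, 444 in mTEChi Exp2 and 14.4 in mTEClo. Its entry sums all exons of the gene, so it could not test the genotype label. The sort label of the Exp2 pair was borne out by its markers, with 5 of 6 mTEChi markers at least 3-fold higher in mTEChi and 3 of 4 mTEClo markers at least 3-fold lower. In bulk libraries, fewer cells that express an antigen and less RNA per cell cannot be told apart.

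The 8 antigens were rare transcripts in WT mTEChi, and Aipl1 and Rcvrn made up most of their signal. The sum over the 8 was 22.1 CPM in WT mTEChi, 32.2 in mTEChi Exp2 and 26.9 in mTEChi at 0 h. Per kilobase, the median over these 3 libraries ran from Aipl1 (8.45 RPKM, range 6.20 to 9.40) and Rcvrn (5.32, range 4.28 to 7.05) to Sag (1.93, range 1.30 to 2.02) and Gnat1 (1.19, range 0.712 to 1.23). Below them came Pdc (0.499, range 0.123 to 0.607), Pde6b (0.476, range 0.109 to 0.737), Pde6a (0.169, range 0.153 to 0.322) and Rbp3 (0.120, range 0.0979 to 0.122). The ranges of Rcvrn and Sag did not meet, nor did those of Sag and Gnat1. Those of Aipl1 and Rcvrn overlapped, as did those of Pdc, Pde6b and Pde6a with one another. Rbp3, although the lowest per kilobase, was the steadiest, its highest library being 1.24 times its lowest. Pde6b varied most, by 6.76 times, from 0.307 CPM in WT mTEChi to 2.07 at 0 h, and Pdc by 4.94 times, from 0.153 CPM in WT mTEChi to 0.757 in mTEChi Exp2. For these 2 genes the WT library of the Aire pair was the lowest of the 3.

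**Figure D1:**
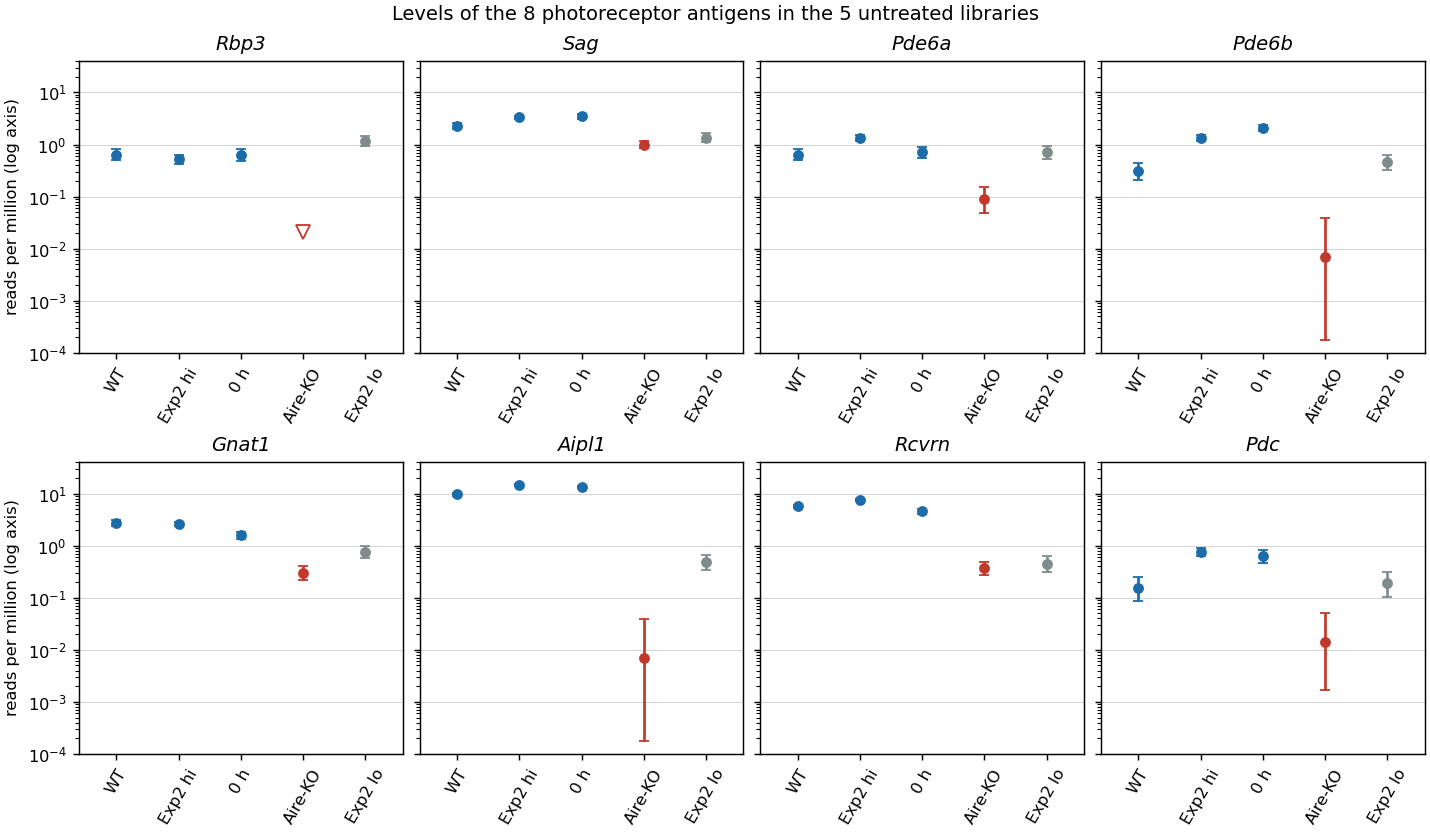
Level of each antigen in CPM (log axis) in the 3 untreated WT mTEChi libraries (blue), the Aire-KO-labelled library (red) and mTEClo (grey), with exact 95% Poisson intervals that cover counting error only. The open triangle for Rbp3 marks the limit that 0 reads allow (0.0210 CPM), and the red point is below all blue points in all 8 panels.

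The first pair asks which genes depend on Aire. All 8 antigens were lower in the Aire-KO-labelled library than in WT mTEChi, and 7 of 8 were at least 3-fold lower. Entries with at least 10 summed normalised counts numbered 26761, of which 21.1% passed 3-fold toward WT and 2.03% toward Aire-KO. Entries as low as the antigens were called more often: within the antigens' range of summed counts 45.5% of 9053 entries passed 3-fold toward WT. The median fold was 11.2 over the 8 antigens, with Rbp3 at its bound, 1.02 over all entries and 2.48 over the entries of that range.

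Aipl1, the phosphodiesterase chaperone, showed the widest gap. It had 1097 normalised counts (1015 reads) in WT mTEChi and 0.925 (1 read) in the Aire-KO-labelled library, a ratio of 1187 with an exact 95% counting interval of 213 to 46916. Rbp3 had 67 reads in WT, or 72.4 normalised counts, and 0 of 143001134 reads in the Aire-KO-labelled library. Taking 3 reads as the floor, it was at least 26.1-fold higher in WT. These 2 genes thus had 1 read between them in a library deeper than the WT one.

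Among the cascade proteins, Gnat1 had 307 normalised counts (284 reads) in WT and 39.8 (43 reads) in the Aire-KO-labelled library, a WT over Aire-KO fold of 7.72 (interval 5.59 to 10.9). Pde6a went from 72.4 (67 reads) to 12.0 (13 reads), a fold of 6.03 (3.30 to 11.9). Pde6b, its partner subunit, went from 34.6 (32 reads) to 0.925 (1 read), a ratio of 37.4 with an interval of 6.25 to 1523. In this pair the intervals of the 2 subunits overlapped. In CPM, with mTEChi Exp2 in place of WT, the folds were 14.9 (8.54 to 28.3) for Pde6a and 192 (34.1 to 7600) for Pde6b. With mTEChi at 0 h they were 7.80 (4.26 to 15.4) and 297 (52.6 to 11775), so with these libraries the intervals did not overlap. All Pde6b folds rest on 1 read in the Aire-KO-labelled library, and a difference between the subunits was not tested. Arrestin was the exception: Sag had 252 normalised counts (233 reads) in WT and 132 (143 reads) in the Aire-KO-labelled library, a fold of 1.90 (1.54 to 2.36). It was the only one of the 8 short of 3-fold, and it made up 55.9% of the summed CPM of the 8 antigens that remained in the Aire-KO-labelled library. In WT its share was 10.1%.

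Of the 2 regulators, recoverin (Rcvrn) went from 637 normalised counts (589 reads) in WT to 49.0 (53 reads), a fold of 13.0 (9.80 to 17.6). Phosducin (Pdc) rested on few reads, 16 against 2, a ratio of 9.35 with an interval of 2.20 to 83.9. Its call of at least 3-fold is therefore not secured by the counts of this pair alone. The intervals treat reads as independent, although the 2 ends of a fragment were counted separately, and they cover counting error only.

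The other WT mTEChi libraries gave the same direction. In CPM, mTEChi Exp2 and mTEChi at 0 h were above the Aire-KO-labelled library for all 8 antigens. Sag was at 3.32 CPM in Exp2 and 3.47 at 0 h against 1.00 in the Aire-KO-labelled library, 3.32 and 3.47 times as high. In CPM, all 8 thus passed 3-fold with either library as the WT sample. This depended on the scaling for Sag: an edgeR fit of the same libraries under TMM scaling put it at 2.41-fold. The share of all entries past 3-fold in these CPM ratios was not counted. Pdc was at 0.757 and 0.622 CPM against 0.0140. Pde6b was at 1.34 and 2.07 CPM against 0.00699.

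When the 3 untreated WT libraries were set against the lone Aire-KO-labelled library with edgeR's quasi-likelihood test on the recovered whole reads, 4 of the 8 antigens were higher at an adjusted p under 0.05, against 8.64% of 23916 entries. The fit assumes that the lone library varies like the WT ones. Aipl1 differed by 10.37 ± 0.99 (log2, SE; adjusted p = 0.00878) and Rcvrn by 3.72 ± 0.72 (adjusted p = 0.0230). Pde6b differed by 6.98 ± 1.64 (adjusted p = 0.0420), and Rbp3, with 0 reads in the lone library, had an adjusted p of 0.0175. The remaining 4 missed the threshold. They were Gnat1 (2.68 ± 0.74, adjusted p = 0.0704), Pde6a (3.03 ± 0.91, adjusted p = 0.0903), Pdc (4.82 ± 1.46, adjusted p = 0.0919) and Sag (1.30 ± 0.58, adjusted p = 0.262). DESeq2 put the differences between 1.19 (log2, Sag) and 10.4 (Aipl1). The median entry of this fit stood at 0.13 (log2) under TMM scaling and at 0.03 under DESeq2 size factors, small beside these differences.

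**Figure D2:**
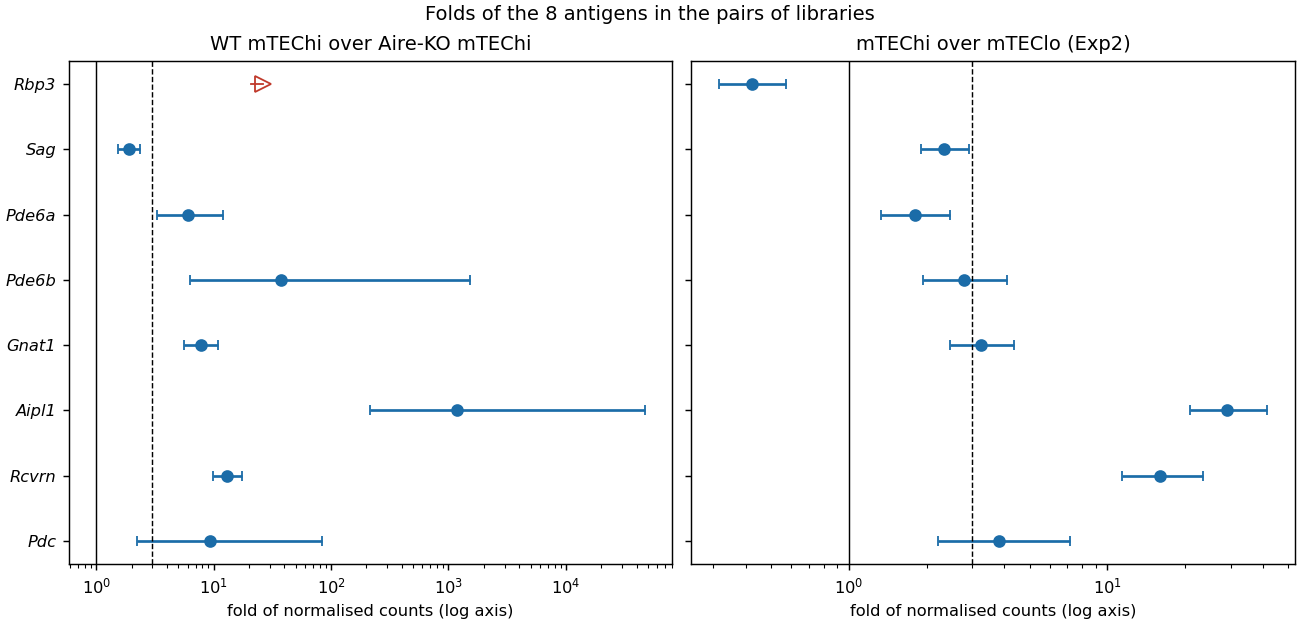
Fold of normalised counts (log axis) for each antigen, WT over Aire-KO on the left and mTEChi over mTEClo on the right, with exact 95% counting intervals; the solid line is 1 and the dashed line 3. The open triangle for Rbp3 is its fold against a floor of 3 reads (26.1) with a line to its lower limit (20.7); on the right Rbp3 is the one antigen below 1.

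The second pair asks what changes as mTEC mature from low to high MHC class II. Here the antigens split. Of the 8, 4 were at least 3-fold higher in mTEChi, 3 were higher by less than that and Rbp3 was lower. Of 29212 entries with enough counts, 11.8% passed 3-fold toward mTEChi and 12.8% toward mTEClo, and in the antigens' range of summed counts 20.5% of 9123 passed it toward mTEChi. The median fold of the 8 was 3.02, against 1.01 over all entries.

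The 2 most abundant antigens were those with the clear gap. Aipl1 had 1734 normalised counts (2885 reads) in mTEChi and 59.9 (36 reads) in mTEClo, a fold of 28.9 (interval 20.9 to 41.4). Rcvrn had 879 (1463 reads) against 54.9 (33 reads), a fold of 16.0 (11.3 to 23.3). These were also the only 2 whose lower counting limit passed 3. Pdc (88.9 against 23.3 normalised counts, fold 3.82, 2.20 to 7.15) and Gnat1 (309 against 94.8, fold 3.26, 2.47 to 4.36) sat close to the limit.

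Just below it came Pde6b, with 157 against 56.6 normalised counts (fold 2.78, 1.94 to 4.10), and Sag, with 390 against 166 (fold 2.34, 1.90 to 2.92). Pde6a had 159 against 88.2 (fold 1.80, 1.34 to 2.46). Rbp3 ran the other way, with 60.7 normalised counts (101 reads) in mTEChi and 143 (86 reads) in mTEClo, so that mTEClo was 2.36-fold higher (1.75 to 3.17). In CPM, Rbp3 was at 1.16 in mTEClo, above the 0.517, 0.633 and 0.642 of the 3 untreated WT mTEChi libraries. IRBP was thus the antigen with the most transcript in mTEClo relative to mTEChi, and one of the 3 with at most 1 read in the Aire-KO-labelled library.

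With the other WT mTEChi libraries against mTEClo, Aipl1 was 20.0 and 27.3 times as high in CPM in WT mTEChi and at 0 h, and Rcvrn 12.7 and 10.2 times. The genes near the limit moved across it. Gnat1 was 3.54 times as high in WT mTEChi and 2.05 times at 0 h, Pde6b 0.669 and 4.52 times, and Pdc 0.812 and 3.30 times. Across the 3 untreated WT libraries, edgeR called 2 of the 8 higher than in the lone mTEClo library, against 1.92% of 24687 entries. This fit shares its 3 WT libraries with the one against the Aire-KO-labelled library. They were Aipl1 (4.54 ± 0.68, log2, SE; adjusted p = 0.0371) and Rcvrn (3.59 ± 0.72; adjusted p = 0.0440). Rbp3 differed by -1.10 ± 0.63 (adjusted p = 0.405), so its lower level in mTEChi was not beyond the spread that this fit allows. Without mTEChi Exp2, neither Aipl1 (adjusted p = 0.0619) nor Rcvrn (adjusted p = 0.0894) passed.

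Set side by side in CPM, the mTEClo library held more of all 8 antigens than the Aire-KO-labelled library, 5.57 against 1.79 CPM in sum. Aire was at 14.4 CPM in that mTEClo library. The 2 libraries came from different experiments, and in the same range of levels 88.6% of 6401 entries were also higher in mTEClo. Rcvrn was nearly level, at 0.445 CPM in mTEClo and 0.371 in the Aire-KO-labelled library, a ratio of 1.20 (interval 0.753 to 1.89). For Aipl1 the values were 0.485 and 0.00699 CPM, and for Rbp3 1.16 and 0.

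The antigens were next placed among the wider photoreceptor genes, drawn from 3 lists of 69 genes that exclude the 8. In the Aire pair, 67 had enough counts: 32 passed 3-fold toward WT, 3 toward Aire-KO and 32 neither, with a median fold of 2.57. In the Exp2 pair 9 of 69 were at least 3-fold higher in mTEChi and 5 at least 3-fold lower, with a median of 1.14. The share past 3-fold toward mTEChi, 13.0%, stood near the 11.8% of all entries. The share past 3-fold toward WT, 47.8%, was above the 21.1% of all entries. The 45.5% of entries in the antigens' range is not a like measure for it, because the lists also hold genes with far more counts, such as Gnb1 and Cdhr1.

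Phototransduction genes passed 3-fold toward WT in 10 of 27 cases and toward Aire-KO in 2. The cone phosphodiesterase inhibitory subunit gene Pde6h was 20.9-fold higher in WT and 37.7-fold higher in mTEChi than mTEClo. The retinal guanylate cyclase genes Gucy2e and Gucy2f were 15.6-fold and 23.2-fold higher in WT. The broadly expressed Gnb1 (0.822-fold), Pde6d (0.854-fold) and Pdcl (0.889-fold), all at more than 10 CPM, differed little. The cone arrestin gene Arr3 had 0 reads in WT and 11 in the Aire-KO-labelled library, and the cone opsin gene Opn1sw 2 and 16.

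Genes of photoreceptor structure passed it toward WT in 13 of 25 cases and toward Aire-KO in 1. Rp1, a microtubule protein of the outer segment, had 69 reads in WT and 2 in the Aire-KO-labelled library, a ratio of 40.3 (interval 10.8 to 339.7). Fscn2, the retinal fascin, was 11.6-fold higher, and Prom1 7.34-fold. The photoreceptor cadherin gene Cdhr1 was the most abundant of the list and went the other way, at 0.358-fold. For the photoreceptor transcription factors the numbers were 9 of 15 toward WT and 0 toward Aire-KO. Crx had 180 reads in WT and 0 in the Aire-KO-labelled library, at least 70.1-fold higher against 3 reads. Nrl was 3.13-fold higher in WT (1449 against 541 reads) and 24.3-fold higher in mTEChi than mTEClo. In WT mTEChi, Crx was at 1.73 CPM and Nrl at 13.9 CPM. Of the 6 factors that did not pass, Thrb was at 0.574-fold and Mef2d at 1.26-fold. The share of 9 of 15 stands beside 21.1% of all entries and 45.5% in the antigens' range, although Nrl, Thrb and Mef2d had more counts than that range.

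Outside the photoreceptor, genes of the pigment epithelium and visual cycle passed 3-fold toward WT in 8 of 17 cases and toward Aire-KO in 2. The retinaldehyde-binding protein gene Rlbp1 was 50.3-fold higher, while Lrat (0.231-fold) and Rgr (0.222-fold) were lower. The lens genes were called most often of the 5 eye lists, with 17 of 21 past 3-fold toward WT, 0 toward Aire-KO and a median of 9.35-fold, genes with 0 reads in the Aire-KO-labelled library being set at their bound. The alpha-crystallin gene Cryaa was 265-fold higher in WT and 13.2-fold higher in mTEChi, and the lens water channel gene Mip 138-fold and 9.09-fold.

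**Figure D3:**
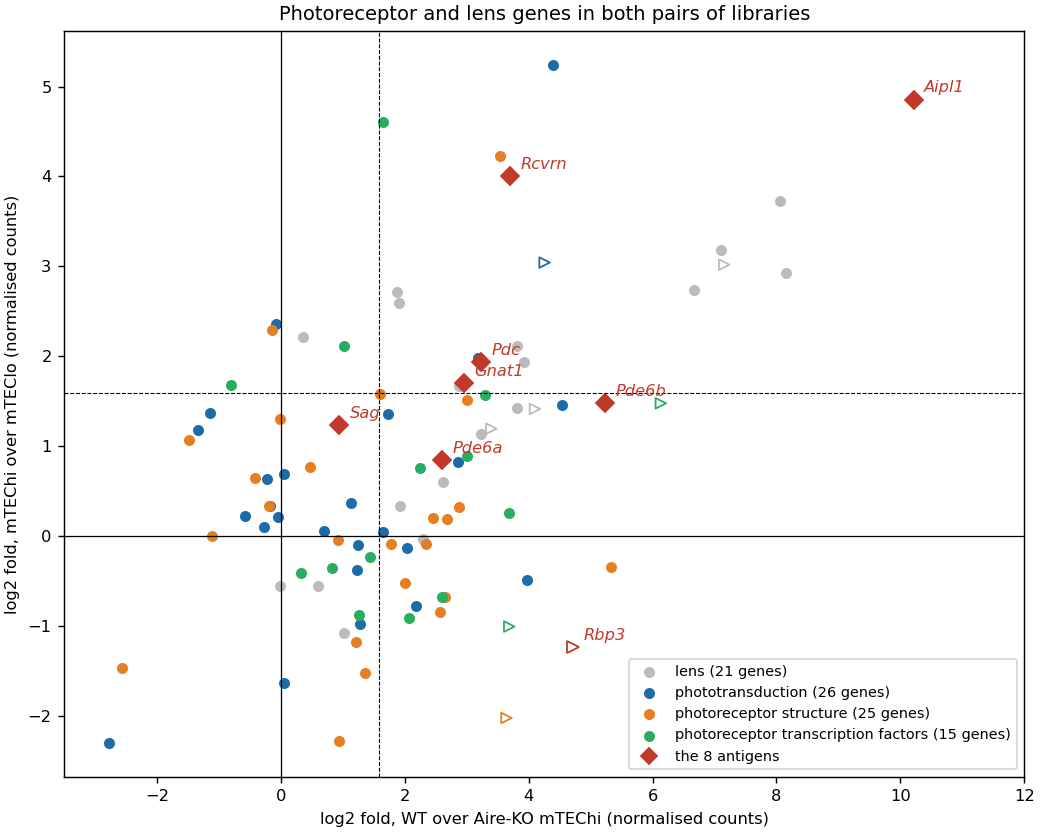
Log2 fold of normalised counts in the Aire pair (horizontal) and in the Exp2 pair (vertical) for phototransduction, photoreceptor structure, photoreceptor transcription factor and lens genes, with the 8 antigens in red; dashed lines mark 3-fold, and open triangles have 0 reads in the Aire-KO-labelled library and are placed at a floor of 3 reads. Genes under 10 summed counts, and Arr3 with 0 reads in WT, are left out. Aipl1 lies at the upper right and Rbp3 at the lower right.

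Markers of other cell types also moved in these pairs. Of 12 tuft cell markers, 10 were at least 3-fold higher in WT than in the Aire-KO-labelled library, and 11 at least 3-fold lower in mTEChi than in mTEClo. Their summed level was 1010 CPM in WT mTEChi, 282 in mTEChi Exp2, 701 at 0 h, 218 in the Aire-KO-labelled library and 1635 in mTEClo, with none at 0. Of 6 dendritic cell and macrophage markers, 4 were at least 3-fold higher in WT and 4 in mTEChi, with sums of 625, 512, 212, 344 and 61.6 CPM in the same order and none at 0. Of the 7 photoreceptor identity markers, 5 of 6 with enough counts were at least 3-fold higher in WT, with sums of 39.0, 33.7, 28.1, 21.1 and 10.9 CPM. Crx and Cnga1 were at 0 in the Aire-KO-labelled library. Fibroblast and endothelial markers were mostly lower in mTEChi, with 3 of 4 and 2 of 3 past 3-fold toward mTEClo and sums of 322 and 181 CPM there against 34.7 and 23.5 in mTEChi Exp2. In the Aire pair 1 of 4 fibroblast markers passed 3-fold toward Aire-KO and 1 of 3 endothelial markers toward WT. Of 6 thymocyte markers, 1 passed 3-fold toward WT and 1 toward mTEChi, with sums of 26.2 to 50.8 CPM over the 5 libraries. The part of these cells in the differences of the antigens was not tested.

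The genes starting within 250 kb of each antigen were also read in the Aire pair. Of 59 neighbours with enough counts, 16 (27.1%) passed 3-fold toward WT, near the 21.1% of all entries, and their median fold was 1.06. The 45.5% of entries in the antigens' range is not a like measure here, because many neighbours had far more counts than that range. Around Rbp3, 6 of 7 neighbours passed 3-fold toward WT, 4 of them at under 100 normalised counts in WT. They were the growth factor genes Gdf10 (3.75-fold) and Gdf2 (4.15-fold), Zfp488 (46.5 against 0.925 normalised counts), Anxa8 (12.9-fold), and Gm5460 and Antxrl (83.3 and 56.2 normalised counts against 0). The same held for 2 of 4 neighbours of Rcvrn, Glp2r (10.7-fold) and Dhrs7c (4.91-fold), and for 2 of 6 of Aipl1, Slc13a5 (21.7-fold) and Pitpnm3 (12.0-fold). Near Gnat1 it was 3 of 18, among them Slc38a3 (8.10-fold), whose start lies 12218 bases away. Near Pde6b it was 2 of 8, near Pdc 1 of 3, and near Sag and Pde6a 0 of 6 and 0 of 7. The median fold of the neighbours was 1.01 for Sag, and also near 1 for Gnat1 (1.01), Pde6b (1.05) and Pde6a (1.10), which themselves were at least 3-fold higher in WT.

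**Figure D4:**
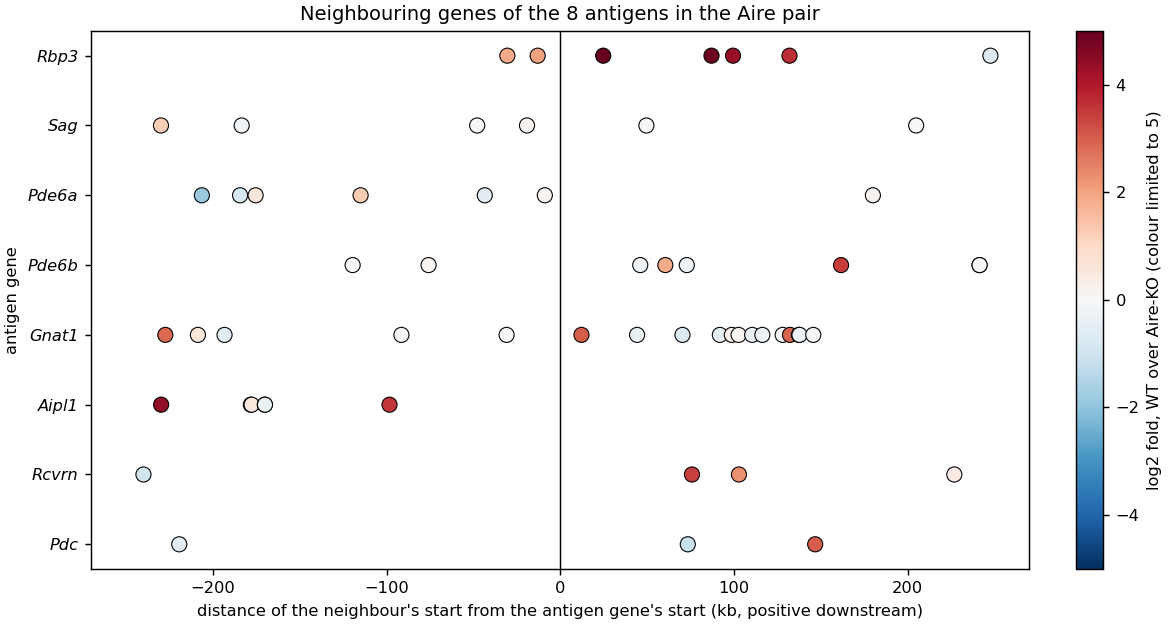
Genes that start within 250 kb of each antigen's start, by distance in kb (positive downstream) and coloured by log2 fold of normalised counts, WT over Aire-KO. The row of Rbp3 holds 6 red points of 7, and those of Sag and Pde6a none past 3-fold toward WT. In the row of Pde6a, Slc6a7 passed 3-fold toward Aire-KO (0.275-fold).

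The mean pattern of the 8 antigens over the 5 untreated libraries was compared with all 7799 entries of similar mean level, by the root mean square distance of centred log2 CPM. The 5 nearest genes were Tmem213 (distance 0.0646), the dopamine receptor gene Drd4 (0.106), the olfactory glucuronosyltransferase gene Ugt2a1 (0.141), the hair keratin gene Krt40 (0.152) and Psg17 (0.158). Tmem213, for example, was at 0.767, 1.26 and 1.00 CPM in the 3 WT mTEChi libraries, 0.0350 in the Aire-KO-labelled library and 0.337 in mTEClo. The antigens themselves lay farther from their own mean, from 0.538 for Pdc to 1.79 for Aipl1. This distance also counts the size of the changes, and the 5 genes were the nearest picked from 7799 entries. Shape alone was read from the correlation with the mean pattern, to which each antigen contributes. It was 0.980 for Aipl1, 0.781 for Rbp3 and 0.886 to 0.946 for the other antigens. The 5 nearest genes had higher correlations, from 0.995 to 0.999.

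The actinomycin D libraries ask how long transcripts last once transcription is blocked. The treated libraries were made with a low-input amplifying kit and the 0 h library was not, so the kit and the treatment cannot be told apart against 0 h, and times are compared with 1.5 h. The counts of the 3 and 6 h libraries were uneven. At 6 h, 8038 of 25537 entries had 0 reads and only 114 had 1 to 5, and at 3 h 4561 and 251. The same classes held 692 and 836 entries at 0 h and 1323 and 1590 at 1.5 h. In the smallest library, at 12 h, they held 6865 and 2217, and grouping of reads there was not tested. Reads therefore arrived in groups at 3 and 6 h, the counting intervals are too narrow there, and a 0 for a rare transcript is not evidence of decay. Among the 9705 entries with a 0 h level in the antigens' range, 0 reads were found for 13.3% at 3 h, 42.4% at 6 h and 32.8% at 12 h. The antigens numbered 1, 5 and 3 of 8.

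Aipl1 was the one antigen with at least 58 reads at all times. It had 316, 312, 317 and 58 reads at 1.5, 3, 6 and 12 h, or 15.0, 22.4, 28.1 and 33.2 CPM, beside 13.3 CPM at 0 h. Relative to all counted transcripts it therefore stood higher at each later time, by 0.58, 0.91 and 1.15 on the log2 scale against 1.5 h. Over 15900 entries with at least 100 reads at 1.5 h the median change was -0.03, -0.15 and -0.28, and the change of Aipl1 lay above 88.4%, 89.5% and 94.8% of them. Such a rise in share says nothing of the absolute amount.

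Rcvrn had 131, 112, 51 and 24 reads, or 6.20, 8.03, 4.51 and 13.7 CPM. Sag had 102, 13, 38 and 27 reads, or 4.83, 0.932, 3.36 and 15.5 CPM. Neither moved in 1 direction, Sag being lowest at 3 h and highest at 12 h. Among the same 15900 entries, the change of Rcvrn from 1.5 h lay above 78.9%, 37.6% and 94.8% at 3, 6 and 12 h. That of Sag lay above 0.635%, 35.3% and 98.6%, so the high rank at 12 h was not particular to Aipl1. The low antigens dropped in and out of the libraries. Rbp3 had 15 and 29 reads at 1.5 and 3 h, Pde6a 8 and 36, and Gnat1 37 and 36, and each had 0 at 6 and 12 h. Pde6b had 45, 52, 0 and 6 reads, and Pdc 11, 0, 0 and 11. At 12 h, 0 reads allow a level of up to 1.72 CPM, above the 0 h level of Rbp3 (0.633), Pde6a (0.710) and Gnat1 (1.57), so their loss was not detectable at that depth.

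A slope on hours was fitted over the 4 treated libraries with edgeR (2 residual degrees of freedom). Rbp3, Pde6a and Pdc did not pass the filter on low counts. None of the other 5 antigens had an adjusted p under 0.05, and 0% of 20652 entries did. At an unadjusted p under 0.05 the fit counted 661 entries up and 1235 down and 0 antigens, and DESeq2 counted 778 up and 1057 down and 0 antigens. At an adjusted p under 0.05, DESeq2 called 415 entries and 0 antigens. The slope of Aipl1 was 0.10 ± 0.06 (log2 per hour, SE; adjusted p = 0.681), that of Rcvrn 0.10 ± 0.11 (adjusted p = 0.874) and that of Sag 0.22 ± 0.14 (adjusted p = 0.729). Gnat1 gave -1.52 ± 1.36 (adjusted p = 0.825) and Pde6b 0.03 ± 0.31 (adjusted p = 0.996).

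**Figure D5:**
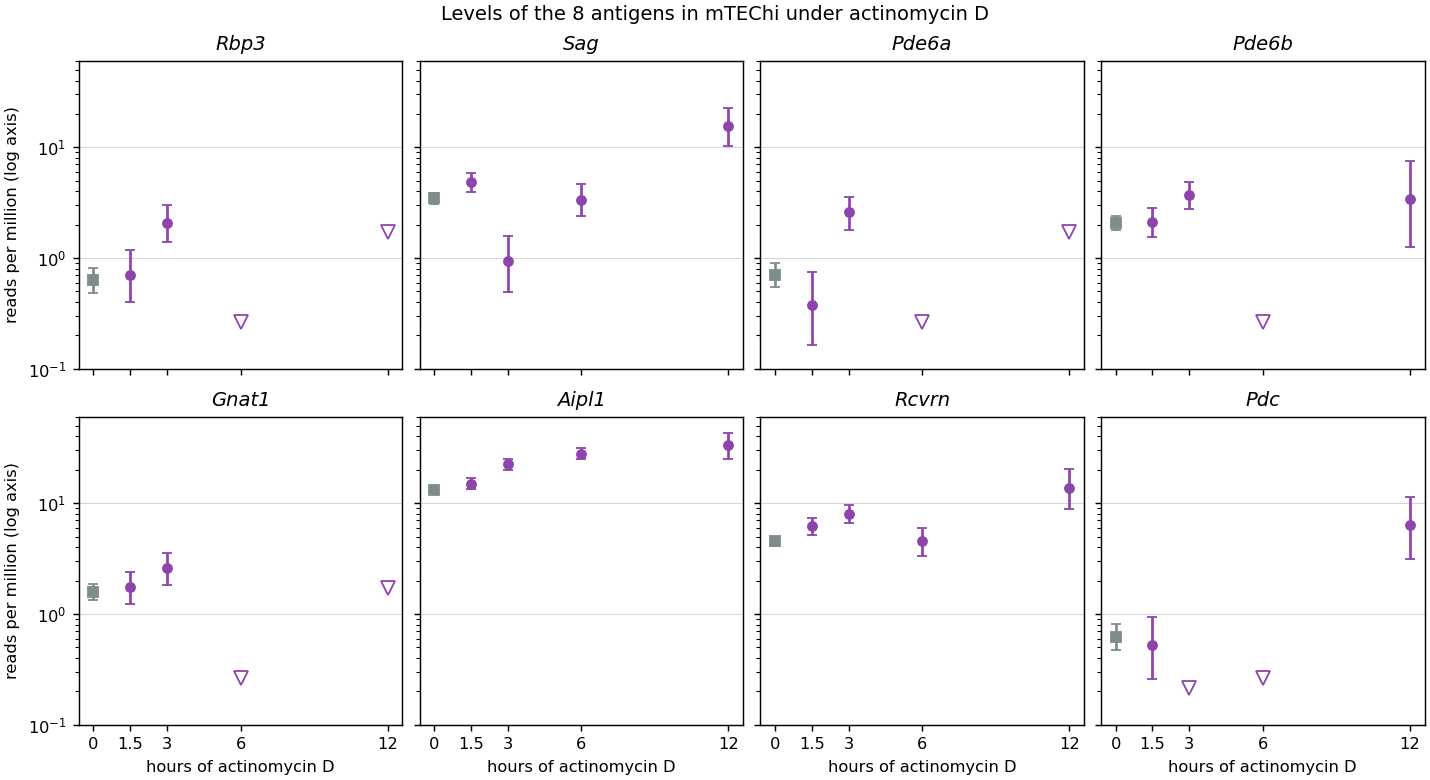
Level of each antigen in CPM (log axis) against hours of actinomycin D, with exact 95% Poisson intervals that cover counting error only; the grey square is the 0 h library, made with another kit, and purple points are the treated libraries. Open triangles mark 0 reads at the limit that 3 reads give. Aipl1 stands higher at each later time, while the low antigens are read in some libraries and not in others.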

How the data were processed

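RNA-seq libraries of sorted mTEC were prepared with a TruSeq poly(A) kit without strand information, and those treated with actinomycin D with a SMARTer and Nextera kit. Per the study's methods and the submitters' processing notes, reads were aligned to mm9 with Bowtie 1.0.0 and counted with bedtools where they lay wholly within RefSeq exons, once for each isoform. For both pairs the authors deposited DESeq size-factor normalised counts (unit signal). Every value was a whole multiple of 1 read within 0.1 (100% whole in all 4 columns), and reads were recovered by dividing. For the actinomycin D series the authors deposited raw counts. The deposited entry length (unit other) gave RPKM. In the Aire pair the columns carry no sample names, and the column assignment follows the study's code. Columns of fold changes and p-values made by the authors were not used.

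Folds are ratios of normalised counts with exact conditional binomial 95% intervals, called at 3-fold among entries with at least 10 summed counts. Fits used edgeR 4.0.16 (TMM, filterByExpr, Benjamini-Hochberg adjustment at 0.05) in R 4.3.3, with DESeq2 1.42.0 as an alternative. The SE beside an edgeR difference or slope was derived from its test, as the absolute log2 value divided by the square root of the F statistic. The main edgeR fits were also run on simulated data with 200 changed genes, and no result here rests on that run. P-values measure only the spread between these libraries. Named genes were the 8 antigens, Aire, up to 4 genes of highest mean CPM in each list, retina-list genes past 3-fold, and the 5 nearest in pattern; neighbouring genes were named after their values were seen. The antigens and lists were chosen with earlier results of these data known. Alternatives covered scaling, minimum, fold limit, numerator library, tool, filter, pseudocount and left-out libraries.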

Additional observations from a re-analysis of the deposited data

How the results depend on the processing

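Of 32 alternatives to the 5 counts of antigens, 29 stayed within 1.5 times the value given. In the Exp2 pair, asking for a lower counting limit of at least 3-fold left 2 antigens in place of 4. Against the lone Aire-KO-labelled library, DESeq2 called 7 in place of 4, and leaving out 1 WT library at a time gave 4 to 5. Without WT mTEChi, Pdc was added (adjusted p = 0.0196), and without mTEChi at 0 h, Gnat1 was added (adjusted p = 0.0177). Against the lone mTEClo library, leaving out 1 WT library at a time gave 0 to 2, the 0 without mTEChi Exp2. The slope on hours called 0 antigens in all 8 alternatives, although over all entries edgeR called 1874 without the 6 h library, 605 without the 12 h library and DESeq2 415, in place of 0. Over all entries DESeq2 called 3819 in place of 2087 against the Aire-KO-labelled library and 2819 in place of 832 against mTEClo, and edgeR called 3045 of the latter without mTEChi at 0 h and 0 without mTEChi Exp2. The cause of these shifts was not tested. The 16 folds of single antigens stayed within their counting intervals under CPM scaling, and the 24 log2 changes between treated libraries under a pseudocount of 1 read in place of 0.5. No paired analysis was possible because each group holds 1 library. Depth limits what can be said of Pdc, Rbp3, Pde6a and Pde6b, and of all antigens but Aipl1 at 3 to 12 h. Aipl1 itself rested on 58 reads at 12 h.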
